A study of Mus musculus with 7 samples.

Results

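Liver RNA of LPS-treated mice was examined for 6 genes that encode secreted antimicrobial proteins. The inducible members were the lectins Reg3b and Reg3g, the lipocalin Lcn2 and the protease inhibitor Slpi, and the members made by the resting liver were Leap2 and Pglyrp2. They were found by gene symbol among the 56691 genes of the deposited count table, and each symbol matched 1 entry. The members were selected on their measured levels in these same LPS-treated and control livers, so their own values are given as a description and support no statement about the set.

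The animals were male C57BL/6J mice, an inbred laboratory strain, bought at an age of 8 weeks and kept for 2 weeks before the experiment. The LPS group (n = 3) received 10 mg/kg of lipopolysaccharide, the outer membrane glycolipid of Gram-negative bacteria, into the peritoneal cavity and was killed after 24 h. The control group (n = 4) is labelled as control, and what these mice were injected with is not given in the sources used here. Neither group received sulforaphane, and each library came from liver tissue as a whole, so fewer cells of a type and less RNA per cell cannot be told apart. Polyadenylated RNA was sequenced, and the reads counted on genes summed to between 14991022 and 20500391 per sample. Levels are in CPM, for which each count was divided by its library total after adjustment with the TMM factors of edgeR.

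Antimicrobial proteins are a fast arm of innate immunity that acts on bacteria directly. C-type lectins of the Reg3 group bind bacterial cell walls, lipocalin 2 withholds iron by binding bacterial siderophores, and the secretory leukocyte protease inhibitor blocks neutrophil serine proteases. The hepatocyte releases many such proteins into the blood, and IL-6, IL-1 and IL-22 acting through STAT3, C/EBP and NF-kappa B factors are known inducers of several of them.

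The samples were not evenly spaced. LPS replicates 2 and 3 lay closer together than the other replicate pairs: the SD of their log2 ratio was 0.11 over 1129 genes that averaged 100 CPM or more, against 0.303 to 0.565 in the other 8 pairs. LPS replicate 1 stood apart from them, with 409 CPM of the macrophage receptor Marco against 66.4 and 65.5 CPM in LPS replicates 2 and 3. Among the control samples, mitochondrial genes took 23.7%, 14.6%, 7.48% and 8.96% of the counts in replicates 1 to 4, against 6.45%, 3.83% and 3.94% in LPS replicates 1 to 3. The defining genes of the labelled tissue were abundant in every sample. Alb, which encodes albumin, had 46926 ± 11458 CPM (SD, n = 4) in control and 24637 ± 25.9 CPM (SD, n = 3) in LPS-treated mice. Its log2 fold change of -0.93 was inside the fold threshold used here and it was called lower in 3 of 16 alternative fits.

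All 6 members passed the filter on low counts, Reg3b and Reg3g only through the LPS-treated samples. Across 13683 genes, the edgeR quasi-likelihood test was run and its p-values were adjusted by the Benjamini-Hochberg method. Called genes had to pass 0.05 after adjustment and a log2 fold change beyond 1 in either direction. By this rule 15.1% of the genes were called, 7.81% higher in LPS-treated mice and 7.31% lower. Of the members, 4 were in the higher group (Reg3b, Reg3g, Lcn2 and Slpi), and nothing is read from this count, since the same samples were used to choose them. The fold changes of Leap2 and Pglyrp2 were inside the threshold, and without LPS replicate 1 Pglyrp2 also passed it.

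**Figure D1:**
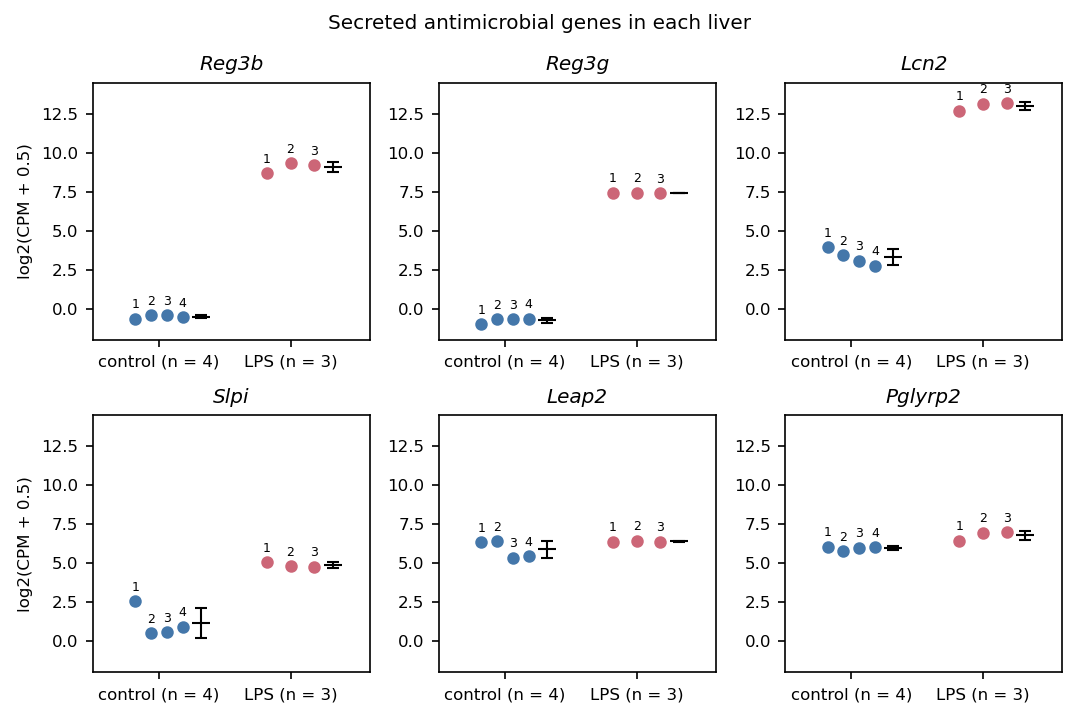
Levels of the 6 members in each liver, as log2(CPM + 0.5) on a common axis. Points are samples numbered by replicate, and the black marks give the mean and SD of 4 control and 3 LPS-treated mice. The groups lie far apart for Reg3b, Reg3g and Lcn2 and overlap for Leap2.

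Reg3b (ENSMUSG00000071356) and Reg3g (ENSMUSG00000030017) encode regenerating islet-derived lectins best known from the intestinal epithelium, where they keep bacteria off the mucosal surface. Reg3b had 2, 4, 4 and 4 counts in control replicates 1 to 4 and 9024, 9864 and 9541 counts in LPS replicates 1 to 3. In CPM it stood between 0.141 and 0.252 in control mice and at 415, 635 and 593 in LPS replicates 1 to 3. Control livers were therefore at the edge of detection, since 3 counts, taken as the smallest detectable amount, equal between 0.145 and 0.212 CPM in these 4 libraries. The summed counts gave a ratio of 2554 between the groups, with a 95% exact interval of 1522 to 4672 that covers counting error only. The fitted log2 fold change was 11.31 (SE 0.27). This SE is derived from the F statistic and is too small for so few control counts, since the counting interval alone is wider.

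Reg3g had 0, 2, 2 and 3 counts in control replicates 1 to 4 and 3724, 2691 and 2708 counts in LPS replicates 1 to 3. After scaling, the LPS-treated mice were at 171, 173 and 168 CPM, with a coefficient of variation of 1.41%. The ratio of the summed counts was 1639 (95% exact counting interval 795 to 4078), and the fitted log2 fold change was 10.59 (SE 0.27). Here too the counting interval is wider than this SE allows, so the SE understates the error. The fitted value was 10.26 without control replicate 1 and 10.83 without control replicate 4. Reg3b had 2.42 times the counts of Reg3g in LPS replicate 1 and 3.67 and 3.52 times in LPS replicates 2 and 3. The lower ratio of LPS replicate 1 came with both a lower Reg3b and an equal Reg3g level.

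Near-identical copies can share reads, and the handling of multi-mapped reads is not given in the sources used here. The longest GENCODE M21 transcripts of Reg3b and Reg3g, of 783 and 2089 bases, were cut into all windows of 50 bases, and 0 of 734 and 0 of 2040 windows occurred in a transcript of another gene. The same held for Lcn2, Slpi, Leap2 and Pglyrp2.

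Both Reg3 genes lie on chromosome 6, and their promoters were compared because the genes moved together. Over the 250 bases before the annotated start, 173 of 253 aligned positions were identical (68.4%), against 43.3% to 46.5% in the other 9 pairs among the 5 members with a promoter in the RefSeq table (GRCm38.p6). The sequences are printed 5′ to 3′ in the direction of transcription, with motif matches in capitals.
Reg3b, chr6:78370635-78370884, plus strand: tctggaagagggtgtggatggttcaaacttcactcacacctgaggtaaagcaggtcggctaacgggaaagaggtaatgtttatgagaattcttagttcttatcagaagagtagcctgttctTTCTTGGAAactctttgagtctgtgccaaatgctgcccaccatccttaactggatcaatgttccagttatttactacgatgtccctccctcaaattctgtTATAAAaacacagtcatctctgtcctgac
Reg3g, chr6:78468875-78469124, minus strand: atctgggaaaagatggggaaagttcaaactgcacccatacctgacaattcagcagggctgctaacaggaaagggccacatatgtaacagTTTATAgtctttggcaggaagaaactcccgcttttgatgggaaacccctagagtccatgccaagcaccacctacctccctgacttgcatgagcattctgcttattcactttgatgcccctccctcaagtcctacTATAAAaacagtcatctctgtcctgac
The capitals mark the TATA box letters TATAAA, which began 29 bases before the start in Reg3b and 27 bases before it in Reg3g, and in Reg3b also the STAT letters TTCNNNGAA at 129 bases before the start. A second TATAAA match of Reg3g, on the opposite strand, began 161 bases before the start. Searched on both strands of 32851 promoters of 300 bases in the table, TATAAA was found in 13.6% and TTCNNNGAA in 8.3%, so a match describes the letters and not a working site.

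Lcn2 (ENSMUSG00000026822) encodes lipocalin 2, also called neutrophil gelatinase-associated lipocalin, which starves bacteria of iron. Per length it was the most abundant member after LPS. Control replicates 1 to 4 had 14.8, 10.3, 7.94 and 6.23 CPM, and LPS replicates 1 to 3 had 6585, 9060 and 9246 CPM. The lowest LPS-treated mouse was 446-fold above the highest control mouse. The means were 9.80 ± 3.70 CPM (SD, n = 4) and 8297 ± 1486 CPM (SD, n = 3), and the fitted log2 fold change was 9.73 (SE 0.35). Reads on Lcn2 alone made up 0.698%, 0.824% and 0.834% of all counts in LPS replicates 1 to 3, against at most 0.00139% in a control sample.

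The Lcn2 promoter is shown because it held a match to the kappa B form and a match to the C/EBP form TTGCNNAA, which were found in 19.2% and 10.8% of all promoters in the table.
Lcn2, chr2:32387740-32387989, minus strand: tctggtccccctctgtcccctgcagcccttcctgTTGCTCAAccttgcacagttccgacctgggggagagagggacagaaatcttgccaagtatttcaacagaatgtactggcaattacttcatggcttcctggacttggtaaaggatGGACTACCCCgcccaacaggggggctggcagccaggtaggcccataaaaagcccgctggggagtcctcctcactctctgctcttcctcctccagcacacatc
The kappa B form lay on the opposite strand, from 102 bases before the start, and the C/EBP form began 216 bases before it. The C/EBP form was also found in Slpi, at position -241 from the start, and in Pglyrp2, at positions -197 and -169, so it was not particular to Lcn2. No promoter of Leap2 was in the table.

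Slpi (ENSMUSG00000017002) encodes a small inhibitor with WAP domains that protects tissue from neutrophil elastase and also kills bacteria. It had 5.44, 0.946, 0.977 and 1.40 CPM in control replicates 1 to 4 and 33.4, 27.4 and 27.1 CPM in LPS replicates 1 to 3. The groups did not overlap, but control replicate 1, with 77 counts against 15 to 29 in the other control samples, stood apart. The fitted log2 fold change was 3.78 (SE 0.46), and without control replicate 1 it was 4.69. That sample also had the largest sum over 6 cholangiocyte markers, 263 CPM against 109, 72.1 and 117 CPM in control replicates 2 to 4, and the part of bile duct cells in its Slpi level was not tested.

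Leap2 (ENSMUSG00000036216) encodes liver-expressed antimicrobial peptide 2, which the liver secretes at rest and which also blocks the ghrelin receptor. Its level was 80.5, 84.3, 40.0 and 43.7 CPM in control replicates 1 to 4 and 82.3, 86.9 and 82.7 CPM in LPS replicates 1 to 3. The groups overlapped, because control replicates 1 and 2 stood at the level of the LPS-treated mice and control replicates 3 and 4 well below it. The means were 62.2 ± 23.5 CPM (SD, n = 4) and 84.0 ± 2.58 CPM (SD, n = 3), with a fitted log2 fold change of 0.44 (SE 0.24). Across all alternative fits this value ran from 0.27 to 0.60.

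The spread of Leap2 among control mice ran alongside that of other short transcripts. Leap2 has 531 exonic bases, and 53 genes with at most 600 exonic bases and an average of 10 CPM or more were compared between samples, a measure added after the data were seen. Their median log2 level relative to the mean of the 7 samples was 0.23, 0.31, -0.38 and -0.30 in control replicates 1 to 4 and -0.0045, 0.039 and 0.11 in LPS replicates 1 to 3. Over all 7049 genes at that level, the medians lay between -0.0526 and 0.0668. Among control mice, replicates 1 and 2 were also those with the larger shares of mitochondrial counts. Over all 7 samples the shares did not follow Leap2. The LPS-treated mice had the lowest shares, 3.83% to 6.45%, with Leap2 at 82.3 to 86.9 CPM. The part of transcript length or RNA quality in the Leap2 values was not tested.

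**Figure D2:**
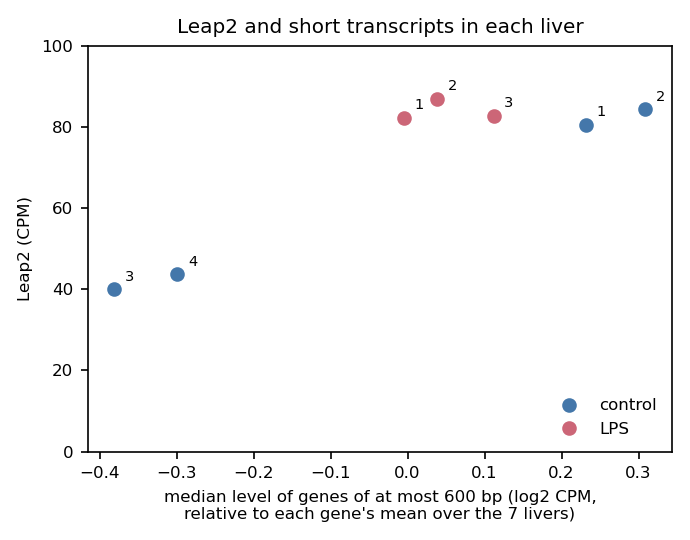
Leap2 in CPM (vertical axis, from 0) against the median log2 level of 53 genes of at most 600 exonic bases, relative to the mean of each gene over the 7 livers (horizontal axis). Points are samples numbered by replicate; control replicates 3 and 4 lie at 40.0 and 43.7 CPM with the lowest medians, and the other 5 samples lie between 80.5 and 86.9 CPM.

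Pglyrp2 (ENSMUSG00000079563) encodes the amidase peptidoglycan recognition protein 2, which hepatocytes release into plasma and which cleaves bacterial peptidoglycan. Control replicates 1 to 4 had 65.7, 53.6, 63.2 and 64.1 CPM, and LPS replicates 1 to 3 had 86.9, 123 and 125 CPM. The lowest LPS-treated mouse stood above the highest control mouse, as for 5 of the 6 members and for 18.1% of all genes tested, while 17.4% lay wholly below, and nothing is read from the members' count. The means were 61.7 ± 5.47 CPM (SD, n = 4) and 112 ± 21.6 CPM (SD, n = 3), a fitted log2 fold change of 0.86 (SE 0.16). It was 1.01 without LPS replicate 1 and 0.79 with LPS replicates 2 and 3 summed into 1 sample. In GENCODE M21 the gene CT485616.1 covers 468 of the 3239 exonic bases of Pglyrp2 on the opposite strand. The libraries kept the strand, but whether the counting used it is not given in the sources used here.

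Levels of different genes were compared per kilobase of exon. In control livers the order was Leap2 at 117 ± 44.3 CPM per kb (SD, n = 4), Pglyrp2 at 19.0 ± 1.69, Lcn2 at 3.74 ± 1.41, Slpi at 1.86 ± 1.85, Reg3b at 0.182 ± 0.0450 and Reg3g at 0.0465 ± 0.0314. The ranges of Lcn2 and Slpi overlapped (2.38 to 5.63 and 0.801 to 4.61 CPM per kb), and the other neighbours did not. In LPS-treated livers Lcn2 led with 3163 ± 566 CPM per kb (SD, n = 3), followed by Reg3b at 480 ± 102, Leap2 at 158 ± 4.86, Reg3g at 80.9 ± 1.14, Pglyrp2 at 34.5 ± 6.66 and Slpi at 24.8 ± 2.99. Here only Pglyrp2 and Slpi overlapped, since LPS replicate 1 had 26.8 CPM per kb of Pglyrp2 and 28.3 CPM per kb of Slpi. Among 13512 tested genes with a known length, Lcn2 moved from rank 5243 to rank 25 and Reg3b from rank 12655 to rank 101, while Leap2 went from rank 356 to rank 248. Both orders were the same when the longest transcript replaced the merged exons as length.

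The genes most like each member were those with the smallest root mean square difference in log2(CPM + 0.5) over the 7 samples, after centring, over the 7068 genes that averaged 10 CPM or more. For Lcn2 these were the serum amyloid genes Saa3 (0.208) and Saa2 (0.292), followed by Reg3b (0.378). Saa3 (0.255) was also closest to Reg3b. For Reg3g they were the metallothionein Mt2 (0.412), the protease inhibitor A2m (0.455) and the oestrogen sulfotransferase Sult1e1 (0.503). Control means of Reg3b and Reg3g, 0.208 and 0.0983 CPM, were below the added 0.5, which shrinks their rise in this measure. The fitted log2 fold change was 9.64 for Saa3 and 9.73 for Lcn2 against 11.31 for Reg3b. It lay between 8.41 and 9.02 for Mt2, A2m and Sult1e1 against 10.59 for Reg3g. A small distance to either Reg3 gene is therefore not read as an equal rise. Slpi was closest to Ly6a, Sdsl and Ms4a6d, at larger distances of 0.511, 0.514 and 0.553. For Leap2 they were the ribosomal protein genes Rps28 (0.0708) and Rps20 (0.0713) and Sdhaf1 (0.091), a mitochondrial assembly factor. Pglyrp2 was closest to Fmo4 (0.0926), Afdn (0.0937) and Pdia5 (0.0938).

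The relatives of the members by gene family were tested in the same fit. Of the 5 other Reg genes only Reg3a passed the filter, again through the LPS-treated samples. It had 0 counts in each control sample and 71, 89 and 106 counts in LPS replicates 1 to 3. Taking 3 counts over the whole control group as the floor, it was at least 111.5-fold higher. Reg1 and Reg2 had 0 counts in all 7 samples, and Reg3d had 2, 1 and 7 counts in LPS replicates 1 to 3 and 0 in control samples. Reg4 had 2, 2, 0 and 2 counts in control replicates 1 to 4 and 0 in LPS-treated samples. Pglyrp1, the peptidoglycan-binding protein of neutrophil granules, was at 0 counts in control samples and at 49, 30 and 43 counts in LPS replicates 1 to 3, at least 51.1-fold higher. No p-value is given for these genes, or for others below that had too few counts in 1 group and passed the filter only with the group where they were high, since such a gene could be tested only if it differed. Pglyrp3 and Pglyrp4 had 0 counts in every sample.

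Of the 10 other genes with WAP domains in the list, 4 were tested, and Wfdc21, Wfdc2 and Wfdc17 rose. Wfdc21 had 86.8 ± 33.3 CPM (SD, n = 4) in control and 215 ± 34.0 CPM (SD, n = 3) in LPS-treated mice (log2 fold change 1.31, SE 0.24, adjusted p = 0.00164, edgeR). Wfdc1, which passed the filter only with the control samples, was lower, at 2.15 ± 1.32 CPM in control and 0.136 ± 0.0516 CPM in LPS-treated mice. Wfdc17 had 27.6 CPM in LPS replicate 1 against 10.2 and 11.9 CPM in LPS replicates 2 and 3, and without LPS replicate 1 its adjusted p was 0.0752 (range over all fits 2.18e-12 to 0.0752, edgeR and DESeq2). The hepcidins, iron-regulating peptides first described as liver-expressed antimicrobial peptides, were the 2 genes tested of a list of 5 with ghrelin and its receptor, and only Hamp2 was called. Hamp had 610 ± 147 CPM in control and 542 ± 73.3 CPM in LPS-treated mice (log2 fold change -0.17, SE 0.19, adjusted p = 0.572, edgeR). Hamp2, which passed the filter only with the control samples, had 672, 639, 162 and 224 counts in control replicates 1 to 4 and 5, 3 and 8 counts in LPS replicates 1 to 3, and as a close copy of Hamp its share of the reads is uncertain.

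Among 18 further genes of secreted antimicrobial proteins, 7 were tested and 6 of these rose, with a median log2 fold change of 1.42 against -0.0139 over all genes tested. Ltf and S100a8 passed the filter only with the LPS-treated samples, so their part of this count and median is set by the filter. The 6 were S100a8 and S100a9, the subunits of calprotectin, Ltf, which encodes lactoferrin, Lyz2, which encodes lysozyme, and the ribonucleases Ang and Rnase4. S100a9 had 1.17 ± 0.646 CPM in control and 82.8 ± 17.1 CPM in LPS-treated mice (log2 fold change 6.18, SE 0.30, adjusted p = 2.77e-08, edgeR). Rnase4 had 839 ± 258 CPM and 1905 ± 403 CPM (log2 fold change 1.18, SE 0.24, adjusted p = 0.00262, edgeR), and Ang went from 161 ± 63.6 to 432 ± 116 CPM. In GENCODE M21, Ang and Rnase4 share 219 exonic bases on the same strand, so reads there could belong to either. The defensin Defb1 stood at 1.54 ± 0.601 and 1.11 ± 0.279 CPM (adjusted p = 0.533, edgeR). A further 7 genes of this list, among them Bpi, Itln1 and Ang4, had 0 counts in all samples, which allows 3 counts, or at most 0.212 CPM, in any of them.

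**Figure D3:**
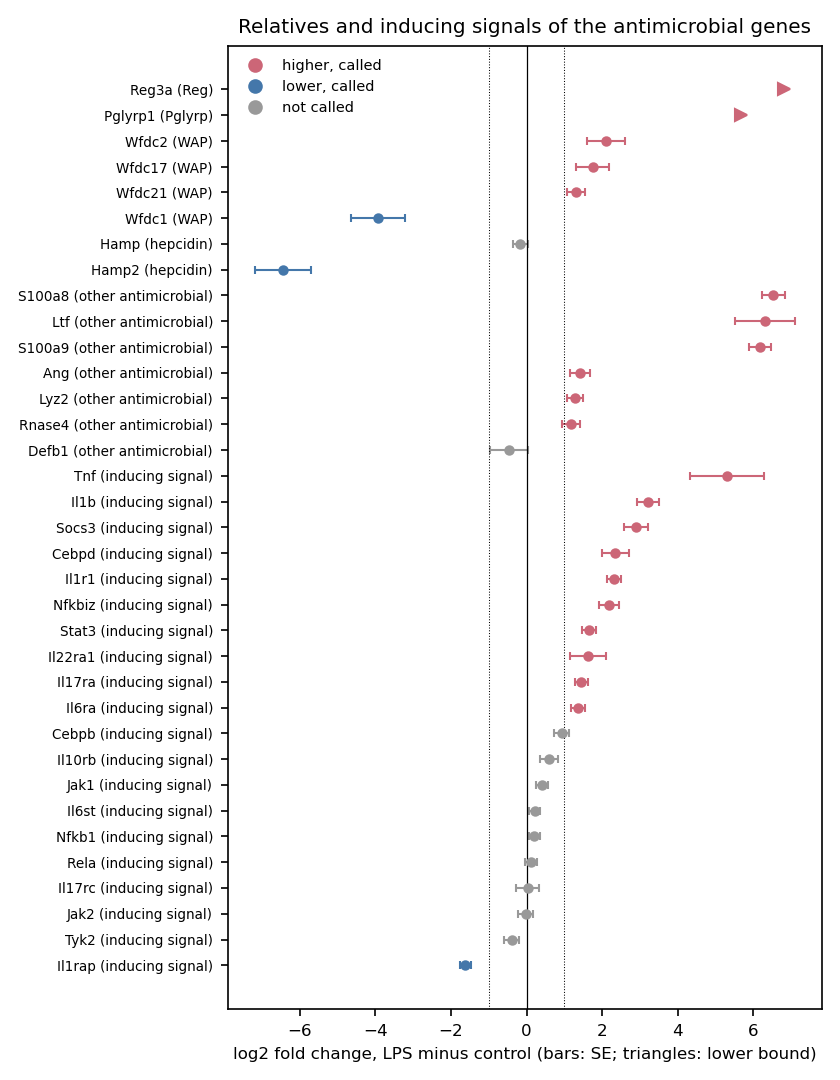
Log2 fold change of LPS-treated (n = 3) against control mice (n = 4) for the tested relatives of the members and the genes of inducing signals (horizontal axis, bars are SE). Red marks genes called higher, blue genes called lower and grey genes not called, dotted lines mark an absolute log2 fold change of 1, and triangles are lower bounds for genes with 0 control counts; Hamp2, Wfdc1 and Il1rap lie below -1.

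Of 4 partner genes of Lcn2, 3 were tested, with Mmp9 called higher and Bdh2 lower. Mmp9, the gelatinase that lipocalin 2 binds in neutrophils, was higher, at 0.237 ± 0.264 CPM in control and 5.85 ± 2.32 CPM in LPS-treated mice. It passed the filter only with the LPS-treated samples, and its summed counts gave a ratio of 22.6 (95% exact counting interval 14.1 to 38.6). Of its 18 control counts, 12 were in control replicate 4, and the fitted log2 fold change of 4.48 became 5.43 without that sample. Bdh2, an enzyme linked to the synthesis of the mammalian siderophore, fell from 16.4 ± 5.04 CPM to 1.61, 0.837 and 2.05 CPM in LPS replicates 1 to 3 (log2 fold change -3.44, SE 0.33, adjusted p = 8.32e-06, edgeR). The Lcn2 receptor gene Slc22a17 had at most 8 counts in any sample and was not tested. Of the proteases that SLPI inhibits or that are stored beside them, Elane had at most 8 counts and Ctsg at most 3 counts in any sample. Prtn3 had 38 counts in control replicate 2 against 2 to 4 in the other control samples, and 53, 27 and 15 counts in LPS replicates 1 to 3. It passed the filter only with the LPS-treated samples and was not called, and its log2 fold change of 1.23 became 3.22 without control replicate 2.

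Of 9 genes for sensing and import of peptidoglycan fragments, the substrate of Pglyrp2, 8 were tested and 3 rose. Tlr2, a receptor for bacterial lipoproteins, had 1.39 ± 0.748 CPM in control and 8.43 ± 1.38 CPM in LPS-treated mice (log2 fold change 2.57, SE 0.39, adjusted p = 3.45e-04, edgeR). Ripk2, the kinase downstream of the NOD receptors, had a log2 fold change of 1.21 (adjusted p = 0.00211), and Slc15a3, a peptide transporter, of 2.22 (adjusted p = 4.76e-04). Slc15a3 shares 1541 of its 5491 exonic bases with Tmem132a on the opposite strand. The sensors Nod1 and Nod2 were at 8.40 ± 2.21 and 11.7 ± 2.08 CPM, and at 0.302 ± 0.281 and 0.853 ± 0.524 CPM, and neither was called (Nod1 adjusted p = 0.149, edgeR). The median log2 fold change of the 8 genes was 0.84, and it includes Nod2, which reached the filter's cutoff in 1 control and 2 LPS-treated samples.

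Of 24 genes in the signals known to induce the members, 20 were tested, 10 rose, among them Tnf, which passed the filter only with the LPS-treated samples, and 1 fell, with a median log2 fold change of 1.14. Among the cytokines, Il1b rose (log2 fold change 3.21, SE 0.30, adjusted p = 5.48e-06, edgeR), and Tnf had 0, 3, 0 and 0 counts in control replicates 1 to 4 and 83, 21 and 16 counts in LPS replicates 1 to 3, a ratio of 50.3 (95% exact counting interval 16.8 to 247). The fitted log2 fold change of Tnf was 5.31, and it was 4.48 without LPS replicate 1. Control replicate 2 held all of its control counts. Without that sample the fit gave 8.18, which is no measured fold, since 0 control counts were left. Il6 had 0, 7, 0 and 0 counts and 11, 9 and 10 counts, too few to be tested, and Il22, Il17a and Il17f had 0 counts in every sample. The receptors Il1r1, Il6ra, Il17ra and Il22ra1 rose. Il1r1 went from 43.9 ± 9.82 CPM to 217 ± 3.99 CPM (log2 fold change 2.30, SE 0.18, adjusted p = 1.40e-06, edgeR), while its co-receptor Il1rap fell from 234 ± 21.1 CPM to 76.1 ± 1.52 CPM (log2 fold change -1.62, SE 0.14, adjusted p = 3.33e-06, edgeR). The rise of Il22ra1, from 0.881 ± 0.343 to 2.73 ± 0.832 CPM, was less firm, with an adjusted p of 0.0221 that became 0.101 without LPS replicate 1 and 0.0657 without LPS replicate 3 (range over all fits 0.00902 to 0.101, edgeR and DESeq2).

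Of the genes acting inside the cell, Stat3, the transcription factor of IL-6 and IL-22 signalling, had 36.1, 55.2, 66.8 and 52.9 CPM in control replicates 1 to 4 and 154, 168 and 177 CPM in LPS replicates 1 to 3. Its log2 fold change was 1.66 (SE 0.18, adjusted p = 2.98e-05, edgeR). The feedback inhibitor Socs3 rose by 2.90 on the log2 scale (SE 0.32), the NF-kappa B cofactor Nfkbiz by 2.18 (SE 0.26) and the C/EBP factor Cebpd by 2.34 (SE 0.36). Cebpb had 22.6 ± 6.20 and 42.8 ± 1.94 CPM, a log2 fold change of 0.92 that missed the fold threshold, and it was called higher without control replicate 2, at 1.11. The shared receptor subunit Il6st, the kinases Jak1, Jak2 and Tyk2 and the NF-kappa B subunits Nfkb1 and Rela had log2 fold changes between -0.39 and 0.41 and were not called.

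Of 10 transcription factor genes that maintain hepatocyte identity, 2 were called lower, Foxa1 and Onecut1, and the median log2 fold change was 0.24. Neither call held in every alternative fit. Foxa1 had 16.0, 13.2, 48.2 and 13.8 CPM in control replicates 1 to 4 and 9.16, 10.2 and 10.3 CPM in LPS replicates 1 to 3, and its log2 fold change of -1.20 (adjusted p = 0.044, edgeR) became -0.54 without control replicate 3. The adjusted p of Foxa1 ran from 9.95e-08 to 0.113 over all fits (edgeR and DESeq2). Onecut1 was also highest in control replicate 3, at 25.8 CPM against 3.03 to 7.49 CPM in the other control samples, and its log2 fold change of -2.19 became -1.16 without that sample. Its adjusted p of 0.0226 rose to between 0.0604 and 0.0819 when any LPS-treated mouse was left out, and ran from 8.48e-12 to 0.0819 over all fits (edgeR and DESeq2). Onecut1 shares 2171 of its 4113 exonic bases with Gm20649 on the same strand. Hnf4a, a central regulator of hepatocyte genes, had 309 ± 61.4 and 517 ± 83.3 CPM (log2 fold change 0.74, adjusted p = 0.00961, edgeR). Cebpa was lower, at 252 ± 21.4 and 174 ± 9.67 CPM (log2 fold change -0.53, adjusted p = 0.0127, edgeR). Its log2 fold change ran from -0.65 to -0.48 over all fits, inside the fold threshold. Foxa3 was called higher only without LPS replicate 1, at a log2 fold change of 1.06.

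Several members are also made by other cells, so markers of those cells were measured beside them. Of 12 neutrophil markers, 8 were tested and 8 were higher, but 6 of these (Cxcr2, Ltf, Mmp8, Ngp, Retnlg and S100a8) passed the filter only with the LPS-treated samples, so this count is largely set by the filter. Their summed level was 5.23, 4.54, 2.01 and 2.95 CPM in control replicates 1 to 4 and 216, 160 and 160 CPM in LPS replicates 1 to 3, with S100a9 the most abundant in the LPS-treated mice. S100a8, S100a9, Ltf, Camp and Elane are in this list and in another list above. The 4 markers not tested had few counts. Mpo had at most 1, Camp at most 7 and Elane at most 8 counts in any sample, and Ly6g had 7, 0 and 1 counts in LPS replicates 1 to 3. The part of neutrophil RNA in the levels of Lcn2, Slpi, Pglyrp1 and the calprotectin genes was not tested.

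Of 8 macrophage markers 4 rose, among them Ly6c2, which passed the filter only with the LPS-treated samples, and 1 fell. Their sum was 79.9, 116, 101 and 75.8 CPM in control replicates 1 to 4 and 527, 116 and 114 CPM in LPS replicates 1 to 3. It was above the control range only in LPS replicate 1, where Marco, the most abundant of them, had 409 CPM. The sum adds the marker that fell to those that rose. Among the latter, Adgre1 had 18.7, 8.62 and 10.1 CPM in LPS replicates 1 to 3, against 2.33 to 4.92 CPM in control mice. Clec4f, the marker of resident Kupffer cells, fell from 54.4 ± 11.7 CPM to 12.3 ± 10.3 CPM (log2 fold change -2.13, SE 0.41, adjusted p = 0.00216, edgeR). It had 24.1, 5.47 and 7.28 CPM in LPS replicates 1 to 3, and without LPS replicate 1 its log2 fold change was -3.09. Vsig4, another marker of resident macrophages, was not called, but it was called lower without LPS replicate 1, at -1.92. For Marco, DESeq2 gave no adjusted p. LPS replicate 1 was also the LPS-treated mouse with the lowest Reg3b, Lcn2 and Pglyrp2 and the highest Slpi, and the part of macrophage RNA in this was not tested.

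Pancreatic acinar cells and the intestinal epithelium are strong sources of Reg3 transcripts. Of 11 acinar markers, 8 had 0 counts in all samples, among them Prss2, Cpa1 and Pnlip. The acinar sum was between 16.5 and 20.0 CPM in control and between 5.73 and 7.71 CPM in LPS-treated mice, nearly all of it Cela1, which fell (log2 fold change -1.49, SE 0.19, adjusted p = 1.03e-04, edgeR). Of 7 intestinal markers, Alpi, Cdx1 and Cdx2 had 0 counts in all samples, and the summed level lay between 119 and 154 CPM in control and between 56.1 and 98.8 CPM in LPS-treated mice, with Fabp2, which the liver expresses too, the most abundant. Fabp2 had a log2 fold change of -0.87, inside the fold threshold, and was called lower in 4 of 16 alternative fits. Of 6 cholangiocyte markers, Sox9 rose (log2 fold change 1.49, SE 0.35, adjusted p = 0.00736, edgeR) and 5 were not called. The cholangiocyte sum was 140 ± 84.3 CPM (SD, n = 4) in control and 154 ± 14.4 CPM (SD, n = 3) in LPS-treated mice, most of it Spp1.

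Of 8 hepatocyte markers, Apoa2 and Ttr fell and Trf rose past both thresholds. Their sum was 85072 ± 10727 CPM (SD, n = 4) in control livers against 65210 ± 5271 CPM (SD, n = 3) after LPS. Alb had the largest fall in CPM. The other 7 markers summed to 38146 ± 1630 CPM (SD, n = 4) in control livers and 40574 ± 5251 CPM (SD, n = 3) after LPS. That sum adds markers that moved in opposite directions. The mean of Trf went from 12428 CPM in control to 25294 CPM after LPS, and that of Cps1 from 1738 to 2662 CPM. Means were lower after LPS for Apoa1 (9973 to 6122 CPM), Ttr (6067 to 2593), Apoa2 (5339 to 1637) and Apoc3 (1127 to 790). Ass1 stayed at 1475 CPM. For the sum of all 8, the highest LPS-treated mouse, at 68389 CPM, was below the lowest control mouse, at 76818 CPM. Without Alb the groups overlapped, at 35876 to 39645 CPM in control and 34511 to 43724 CPM in LPS-treated mice. Alb was the most abundant of them in control livers. In LPS-treated livers it was Trf, at a mean of 25294 CPM against 24637 CPM of Alb. The call of Trf held in 3 of the 7 fits that each left out 1 mouse, and 2108 of its 3320 exonic bases are shared with Gm20425 on the same strand.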

How the data were processed

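Raw counts per gene, as deposited, were used for 7 liver libraries. They had not been normalized. For their making, the submitters' processing notes list cutadapt 1.9.1, HISAT2 2.2.1, HTSeq 0.6.1, DESeq2 1.34.0 and the build GRCm39 without roles. The paper assigns read mapping to cutadapt, assembly to HISAT2 and differential expression to DESeq2, for which it names another version. The annotation release, the strand setting and the handling of multi-mapped reads are not given in the sources used here.

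Counts were analysed in R 4.3.3 with edgeR 4.0.16, using filterByExpr, TMM factors and a quasi-likelihood model of condition alone, with Benjamini-Hochberg adjustment over 13683 genes. SE values were derived from the F statistic and can be too small for genes with very few counts in 1 group. The method was tested on simulated data. The paper gives the group sizes as mice, so each library was taken as 1 mouse, and p-values measure the spread between these samples. Counting intervals and floors of 3 counts cover counting error only. Lengths, overlaps and transcripts came from GENCODE M21 (GRCm38) and promoters from RefSeq (GRCm38.p6), and no coordinates were joined to the counts. Alternatives were DESeq2 1.42.0, other scalings and filters, the replicate number as a block, each mouse left out, and LPS replicates 2 and 3 summed. Genes named were the members, the listed genes and markers, and the 3 genes most like each member. The members and lists were chosen with earlier results of these data known.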

Additional observations from a re-analysis of the deposited data

Results flagged for a closer look

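Control levels were checked for 1 sample far from the other 3 in 92 genes and marker sums, by Dixon's test at the 5% level, which chance alone passes in about 5% of cases. It picked out 3. Slpi had 5.44 CPM in control replicate 1, with the next sample at 1.40 CPM. Foxa1 had 48.2 CPM in control replicate 3, with the next at 16.0 CPM. Prtn3 had 2.40 CPM in control replicate 2, with the next at 0.212 CPM.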

How the results depend on the processing

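Of 480 values under an alternative setting, 459 stayed within 1.5 times the reported count or within 1 SD between replicates of the reported log2 fold change, 21 moved further and 0 reversed. The 459 include list counts of 0 that stayed at 0 and fold changes of the members, so they do not measure how firm the calls are. With at least 10 counts required in every sample, 693 genes were higher in place of 1068, and the 10 lists held 16 higher genes in place of 25. Reg3b and Reg3g were then not tested, and 0 genes were higher in the Reg, peptidoglycan recognition and Lcn2 partner lists and 0 lower in the WAP and hepcidin lists, since that filter removes every gene under 10 counts in any sample. Without a fold threshold 1824 genes were higher and 1773 lower. Total counts without scaling factors shifted the median log2 fold change of all genes by -0.116 and gave 926 higher and 1176 lower genes, in place of 1068 and 1000.

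Of the 2 hepatocyte transcription factors that were called lower, 1 was also called by DESeq2 and 0 with LPS replicates 2 and 3 summed, and the cause was not tested. With each mouse left out in turn, 0 to 2 of the 10 transcription factor genes were lower and 0 to 1 higher, the latter being Foxa3, and 0 to 1 Slpi target proteases were higher, namely Prtn3, which passed the filter only with the LPS-treated samples. The log2 fold change ran from 10.26 to 10.83 for Reg3g and from 3.52 to 4.69 for Slpi. Few control counts limit the precision of Reg3b and Reg3g.

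With the replicate number as a block, the log2 fold change of Reg3g was 10.84, and 995 genes were higher and 926 lower, of which 928 and 854 were shared with the fit without the block. Deviations of same-numbered samples correlated at 0.322, -0.0714 and 0.0404, and those of differently numbered samples at -0.357 to 0.277. Not every sample correlated best with its own number, but 0.322, for replicate 1, was the highest value. So few values cannot decide whether the numbers pair the samples. The call of Il22ra1 was lost (adjusted p = 0.0639, edgeR, range over all fits 0.00902 to 0.101).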
